A study of Mus musculus with 6 samples.

Results

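The genes described here encode 33 proteins of the lysosome and of its transcriptional control: cathepsins and other proteases, glycosidases, sphingolipid-degrading enzymes, membrane proteins, subunits of the proton pump, and the transcription factors TFEB and TFE3. They were taken from a list of gene names, with no threshold on their values, and all 33 were found among the 55385 genes of the count table. Liver RNA was compared between male mice that had undergone vertical sleeve gastrectomy (VSG, the removal of most of the stomach) and sham-operated mice, with 3 animals in each group. Per the labels, both groups were fed a high-fat diet (HFD) for 10 weeks, and then for 12 more weeks after the operation. The labels give an age of 6 to 8 weeks, which appears to be that at the start of the diet. The methods name wild-type C57BL/6 male mice, no group carried an engineered allele, and no group matched for food intake or body weight was analysed here. About 40 mg of liver was taken per animal, so each library is a mixture of hepatocytes and the other cells of the liver.

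Lysosomes are acidic compartments in which proteins, glycans and lipids delivered by endocytosis and autophagy are broken down. A vacuolar-type ATPase (V-ATPase) pumps protons across the lysosomal membrane and keeps the lumen acidic, and most of the hydrolases work best at that pH. TFEB and TFE3 are related basic helix-loop-helix factors that are held in the cytosol by mTORC1 in fed cells. In the nucleus they bind E-boxes in the promoters of many lysosomal genes, the so-called CLEAR network. In the liver both hepatocytes and Kupffer cells, the resident macrophages, are rich in lysosomes.

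Total counts ran from 22804397 to 24191778 per library, and 3 counts corresponded to between 0.111 and 0.143 CPM (counts scaled by library size and TMM factor). Markers of hepatocytes, 8 genes, summed to 61858 to 98737 CPM in the sham group and 45792 to 71920 CPM in the VSG group, which overlapped. The VSG libraries stood apart by neutrophil markers, of which 9 of 9 were higher (edgeR, adjusted p below 0.05), where 6.79% of all tested genes were. Mpo, Elane, Ltf, Camp, Ngp, Ly6g and Retnlg fell short of 10 counts in at least 1 library. A filter of 10 counts in every library left those genes untested. All 9 calls were lost without sham replicate 3 or VSG replicate 6 (adjusted p 0.0574 to 0.101). Of the 9, 8 were lost without sham replicate 2 and 2 without sham replicate 1, and limma-voom made 3 of the 9. Their summed level was 2.56 to 14.5 CPM in the sham group and 131 to 1782 CPM in the VSG group. VSG replicate 4 held the highest of these sums. Stellate cell markers lay on the other side, with 9 of 9 log2 fold changes negative (-1.71 to -0.39). Of these, 7 were at an unadjusted p below 0.05, where 33.9% of all tested genes were. By edgeR 1 of them was called (11.1%, against 14.7% of all tested genes), Reln, and not when any sham library or VSG replicate 6 was left out. These markers gave sums of 374 to 697 CPM in the sham group and 168 to 364 CPM in the VSG group. B cell markers summed to 5.24 to 7.27 CPM in the sham group and 26.8 to 31.1 CPM in the VSG group. The gap was carried by Jchain (2.20 to 2.65 CPM against 22.5 to 24.5 CPM), the 1 gene of 5 that was called (20%, against 14.7% of all tested genes). The mitochondrial share of counts was 5.59% to 6.58% in the sham libraries and 4.14% to 5.01% in the VSG libraries, again without overlap. The part of these shifts in the values of the lysosomal genes was not tested.

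Of the 33 lysosomal genes, 2 were lower after VSG and 0 were higher at an adjusted p below 0.05 (edgeR's quasi-likelihood test, Benjamini-Hochberg over all 14454 tested genes). The genes that fell were Hexa, the alpha subunit of beta-hexosaminidase, and Atp6v1h, the H subunit of the V-ATPase. Those 2 genes were 6.06% of the list, while 14.7% of all tested genes were called in either direction, 6.79% higher and 7.87% lower. At an unadjusted p below 0.05 there were 9 lysosomal genes, 3 higher and 6 lower, or 27.3% of the list against 33.9% of all tested genes. DESeq2 called 7 of the 33, 1 higher and 6 lower, where it called 22.7% of all tested genes, and limma-voom called 2, where it called 12.9%. All 33 genes had passed the filter on low counts.

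The changes were small. The log2 fold changes of VSG over sham ran from -0.79 for Ctsk to 0.49 for Tfe3, with a median of -0.14 against 0.03 over all tested genes. The estimates of 30 of the 33 genes (90.9%) lay within 1.5-fold of no change, where 72.7% of all tested genes did. Estimates were negative for 22 genes and positive for 11. The CPM of the groups did not overlap for 15 of the 33 (45.5%), against 39.6% of all tested genes. The summed CPM of the 33 genes was 7056, 6828 and 7203 after sham surgery and 7319, 6407 and 6236 after VSG, so the groups overlapped. The call of both genes rested on single libraries: without sham replicate 3 or without VSG replicate 6, 0 of the 33 genes were called. Over all genes the count then fell to 159 and 210 genes.

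**Figure D1:**
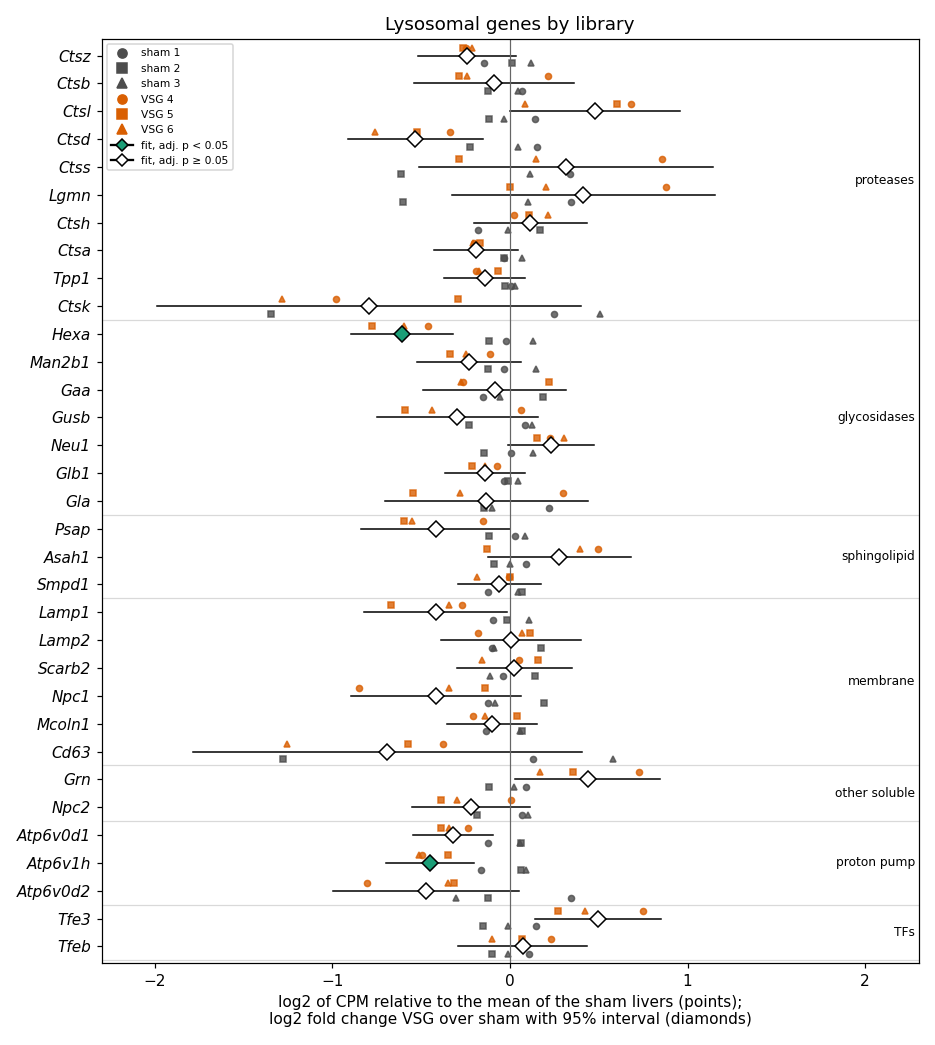
For each of the 33 genes (y axis, grouped by role), diamonds give the log2 fold change of VSG over sham with its 95% interval and are filled where the adjusted p is below 0.05; small points give each of the 6 libraries as log2 of CPM relative to the sham mean (x axis, log2 units). Hexa and Atp6v1h are the filled diamonds, both to the left of 0, and 22 of the 33 estimates are negative.

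Per length of summed exons the list spanned a wide range of levels. The order rests on the annotated exon length of each gene, not on the transcripts present. That length was 2675 bases for Lamp1 and 6489 bases for Ctsl. In fragments per kilobase of exon scaled to library size (FPKM, mean of the 6 libraries), Lamp1, the abundant glycoprotein of the lysosomal membrane, was highest at 311 FPKM. Psap, the precursor of the saposins, followed at 259.7 FPKM, and then the proteases Ctsz at 154, Ctsb at 147 and Ctsl at 113 FPKM. At the other end stood Atp6v0d2, Gla, Cd63, Ctsk and Tfeb, between 1.05 FPKM for Tfeb and 3.43 FPKM for Atp6v0d2. Ctsk, the collagen-degrading cathepsin typical of osteoclasts, and Atp6v0d2, a pump subunit also known from osteoclasts and macrophages, were thus measured at a low level. Ctsk had 86, 23 and 100 counts after sham surgery and 30, 51 and 23 counts after VSG.

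**Figure D2:**
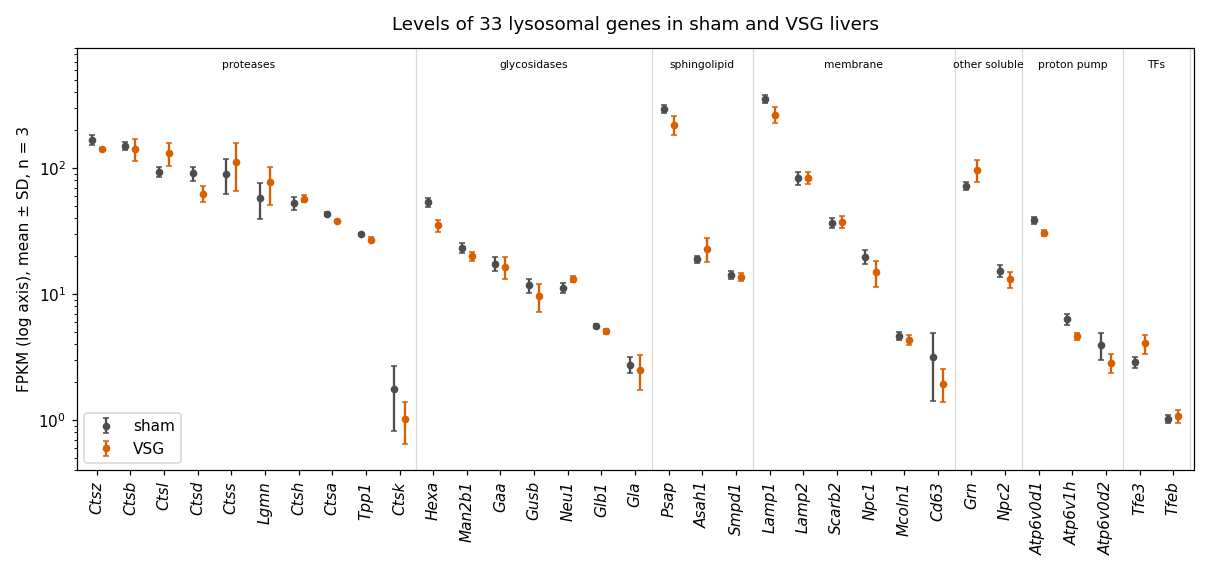
Level of each of the 33 genes (x axis, grouped by role) in FPKM on a log axis, with points for the mean and bars for the SD of the 3 sham and the 3 VSG libraries. Over the 6 libraries the means span from 1.05 FPKM for Tfeb to 311 FPKM for Lamp1, and the bars of the groups overlap for most genes.

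The transcription factors were compared first. Tfe3 measured 29.7, 24.1 and 26.6 CPM after sham surgery and 45.1, 32.4 and 35.9 CPM after VSG. Every VSG library lay above every sham library, with the highest value in VSG replicate 4. The log2 fold change was 0.49 (SE 0.150), and with an edgeR adjusted p of 0.0700 Tfe3 did not pass the test. Tfe3 did pass with DESeq2 (adjusted p 0.0389) and in edgeR without VSG replicate 5 (adjusted p 0.0444). Tfeb measured 6.27, 5.43 and 5.77 CPM after sham surgery and 6.82, 6.11 and 5.43 CPM after VSG, and the groups overlapped. Its fold change was 1.05 with a 95% interval of 0.817 to 1.35 (adjusted p 0.764 by edgeR). These are RNA levels. Both factors are known to be controlled by their place in the cell, which was not measured.

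Stretches of promoter that hold the letters bound by this family are shown for the genes with the 8-letter palindrome, and for Lamp1, since E-boxes are the sites TFEB and TFE3 are known to bind. Promoter windows from 250 bases before to 50 bases after the start site (RefSeq, GRCm38.p6) were available for 27 of the 33 genes. Windows of Ctsb, Ctsh, Npc1, Atp6v0d2, Atp6v1h and Asah1 were not used here. The core CACGTG was in the windows of 10 of 27 genes (37%), against 8.09% of the 27025 genes with a window and 7.15% of the 32851 windows. Of the 133 other lysosomal genes described below, 107 had a window, and 25 of these (23.4%) held the core. The longer TCACGTGA, which contains the core, was in 5 of 27 genes (18.5%) against 1.12% of genes and 0.974% of windows. It was in 10 of the 107 other lysosomal genes (9.35%). The letters of the CLEAR consensus, TCACGTGA with a G before and a C after it, were in 0 of 27 genes and 0.37% of all genes. They were in 2 of the 107 other lysosomal genes (1.87%). All 3 motifs read the same on both strands. The sequences below run 5′ to 3′ on the strand of the gene, with the motif in capitals.
Ctsa, chr2:164833750-164833777 (+): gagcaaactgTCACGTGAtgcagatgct
Ctsa, chr2:164833767-164833794 (+): atgcagatgcTCACGTGAccagagctac
Ctsd, chr7:142387909-142387936 (-): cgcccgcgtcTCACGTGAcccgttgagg
Gla, chrX:134601216-134601243 (-): aagcgattgaTCACGTGAgcatctacgt
Gla, chrX:134601183-134601210 (-): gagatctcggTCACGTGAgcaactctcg
Mcoln1, chr8:3500463-3500490 (+): ggcgccccgcTCACGTGAccgcggcgca
Atp6v0d1, chr8:105566051-105566078 (-): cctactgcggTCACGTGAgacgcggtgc
Lamp1, chr8:13159090-13159160 (+): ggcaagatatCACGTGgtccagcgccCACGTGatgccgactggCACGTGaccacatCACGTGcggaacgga

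The stretch of Lamp1, the highest gene of the list in FPKM, held 4 copies of the core within 71 bases just before its start site. Counted from the start site, the first base of the 8-letter motif lay at -4 in Atp6v0d1, at -13 and 4 in Ctsa, at -46 in Mcoln1, at -99 in Ctsd, and at -195 and -228 in Gla. Ctsl, Glb1, Gaa and Lgmn held the core alone. The median log2 fold change was -0.14 over the 10 genes with the core and -0.14 over the 17 without it. Over the 5 genes with TCACGTGA it was -0.19, against -0.11 for the 22 without it. None of those 5 genes passed the test by edgeR, and 2 of them, Ctsd and Atp6v0d1, were lower by DESeq2. A match of letters is no evidence that a factor was bound in these livers.

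The proton pump held a gene that fell. Atp6v1h (ENSMUSG00000033793.12, chr1:5070018-5162529 on the plus strand of GRCm38) encodes the H subunit of the cytosolic V1 sector, which couples ATP hydrolysis to proton transport. It measured 55.2, 64.4 and 65.8 CPM after sham surgery and 43.7, 48.5 and 43.3 CPM after VSG. All VSG libraries lay below all sham libraries. The mean fell from 61.8 ± 5.73 to 45.2 ± 2.87 CPM (SD, n = 3 per group), a log2 fold change of -0.45 (SE 0.104, adjusted p 0.0350 by edgeR), or 0.731 of the sham level with a 95% interval of 0.616 to 0.868. The adjusted p was 0.0970 with sham replicate 2 left out, 0.139 with sham 3, 0.0844 with VSG 4 and 0.121 with VSG 6. Since these are whole livers, fewer cells of a type and less RNA per cell cannot be told apart, here and for every gene below. Atp6v1h overlaps Rgs20 on the opposite strand by 127 exon bases, and Rgs20 had 10 counts over all libraries.

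The remaining pump genes of the list are alternative d subunits of the membrane-bound V0 sector. Atp6v0d1, the widely expressed form, measured 63.5, 72.2 and 71.8 CPM after sham surgery and 58.8, 52.8 and 54.5 CPM after VSG, again with no overlap. Its log2 fold change was -0.32 (SE 0.0955, adjusted p 0.0667 by edgeR). DESeq2 gave an adjusted p of 0.0234 and scaling by total counts one of 0.0432. Atp6v0d2 measured 13.8, 9.95 and 8.77 CPM after sham surgery and 6.19, 8.71 and 8.48 CPM after VSG, with sham replicate 1 above all other libraries and the groups just short of overlapping. Its log2 fold change was -0.47 (SE 0.220, adjusted p 0.181 by edgeR).

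Of all 22 subunits and accessory proteins of the pump listed, these 3 included, 20 could be tested. Estimates were negative for 15 and positive for 5, with a median log2 fold change of -0.30, and 4 of 20 were lower and 0 higher by edgeR. That was 20.0% called, against 14.7% of all tested genes, and 10 of 20 were at an unadjusted p below 0.05, 9 of them lower, where 33.9% of all tested genes were. Besides Atp6v1h, the genes called were Atp6v1f (-0.48, SE 0.123, adjusted p 0.0475), Atp6v1d (-0.41, SE 0.0940, adjusted p 0.0350) and Atp6v1e1 (-0.37, SE 0.0838, adjusted p 0.0339), all of the V1 sector, with log2 fold changes by edgeR. Atp6v1e1, part of a stalk that holds the V1 sector in place, showed the tightest values, with 97.8, 97.1 and 96.4 CPM after sham surgery and 78.0, 73.1 and 74.4 CPM after VSG. The groups were well apart. The 3 calls were nevertheless lost when any single library was left out, with adjusted p between 0.0521 and 0.170, and those of Atp6v1e1 (0.0677) and Atp6v1f (0.0533) also with no filter beyond 1 count. Estimates on the other side of 0 included Atp6v1g1, a further V1 subunit (0.48, adjusted p 0.0539), and Atp6v1b2 (0.17), both chosen after their values were seen. The summed CPM of the 22 genes was 927, 922 and 939 after sham surgery and 867, 770.4 and 781 after VSG, which did not overlap.

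**Figure D3:**
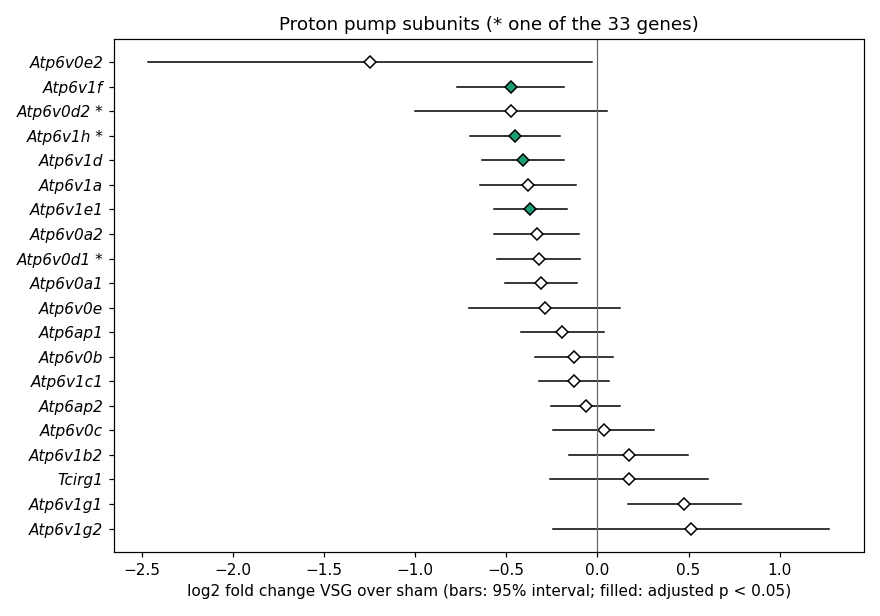
Log2 fold change of VSG over sham (x axis) with its 95% interval for the 20 tested proton pump genes (y axis), with a star on the 3 genes of the list and filled symbols for an adjusted p below 0.05. The 4 filled symbols, Atp6v1f, Atp6v1h, Atp6v1d and Atp6v1e1, lie between -0.48 and -0.37.

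Among the 7 glycosidases, which trim sugars from glycoproteins, glycolipids and glycogen, 1 was lower and 0 were higher by edgeR (14.3% called, against 14.7% of all tested genes), with a median log2 fold change of -0.14. Hexa (ENSMUSG00000025232.8, chr9:59539540-59565109 on the plus strand of GRCm38) encodes the subunit of beta-hexosaminidase A needed to degrade ganglioside GM2, and its loss causes Tay-Sachs disease in humans. It measured 105, 98.5 and 117 CPM after sham surgery and 77.5, 62.4 and 70.6 CPM after VSG. All VSG values lay below all sham values. The mean fell from 107 ± 9.40 to 70.2 ± 7.57 CPM (SD, n = 3 per group), a log2 fold change of -0.61 (SE 0.121, adjusted p 0.0251 by edgeR), or 0.656 of the sham level with a 95% interval of 0.538 to 0.801. The adjusted p was 0.0554 with sham replicate 1 left out, 0.109 with sham 3 and 0.0931 with VSG 6. The adjusted p with DESeq2 was 2.18e-04. Hexa shares 255 exon bases with Tmem202 on the opposite strand, which had 27 counts over all libraries.

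Gm2a was looked at after the value of Hexa was seen. Gm2a, the activator protein that presents GM2 to the enzyme, measured 141, 135 and 116 CPM against 105, 85.1 and 103 CPM, with no overlap. Its log2 fold change was -0.42 (SE 0.130, adjusted p 0.0733 by edgeR), so it did not pass the test.

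The other glycosidases did not pass the test either. Estimates were -0.30 for Gusb (beta-glucuronidase), -0.23 for Man2b1 (alpha-mannosidase), -0.14 for Glb1 (beta-galactosidase), -0.13 for Gla (alpha-galactosidase A) and -0.09 for Gaa, which degrades glycogen. Glb1 measured 16.5, 16.8 and 17.4 CPM after sham surgery and 16.0, 14.6 and 15.3 CPM after VSG, a small difference without overlap (adjusted p 0.327 by edgeR). The positive estimate belonged to Neu1, the sialidase, at 42.2, 38.1 and 46.0 CPM against 49.3, 46.8 and 52.0 CPM. Its groups did not overlap, with a log2 fold change of 0.23 (SE 0.101, adjusted p 0.162 by edgeR). Neu1 works in a complex with Glb1 and with Ctsa, the protective protein, and Ctsa measured 200.3, 199.7 and 214 CPM against 178, 182 and 177 CPM. The groups did not overlap for Ctsa, with a log2 fold change of -0.19 (SE 0.0998, adjusted p 0.218 by edgeR).

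Of the 10 proteases 0 were called in either direction by edgeR, where 14.7% of all tested genes were, with a median log2 fold change of -0.12. At an unadjusted p below 0.05 there were Ctsd and Ctsl, on opposite sides of 0, where 33.9% of all tested genes were. DESeq2 called Ctsd and limma-voom 0 of the 10. Ctsd, the aspartic protease cathepsin D, measured 238, 183 and 221 CPM after sham surgery and 169, 149 and 126 CPM after VSG. The groups did not overlap. Its log2 fold change was -0.53 (SE 0.159, adjusted p 0.0670 by edgeR and 0.0115 by DESeq2). Ctsd shares 808 of its 2351 exon bases with Gm49369 on the same strand, which is listed with 0 counts, and how reads in shared bases were counted was not given in the sources used here. Ctsl, the cysteine protease cathepsin L, measured 675, 563 and 596 CPM after sham surgery and 979, 928 and 647 CPM after VSG. VSG replicate 6 lay within the range of the sham group. The log2 fold change was 0.48 (SE 0.201, adjusted p 0.147 by edgeR).

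Ctss and Lgmn (legumain, an asparaginyl endopeptidase), proteases known from antigen-presenting cells, varied widely between animals of a group. Ctss measured 155, 80.1 and 133 CPM after sham surgery and 222, 100.3 and 136 CPM after VSG. Lgmn measured 171, 88.6 and 144 CPM after sham surgery and 248, 135 and 155 CPM after VSG. Both genes were highest in VSG replicate 4 and lowest in sham replicate 2, and the groups overlapped. Their log2 fold changes were 0.32 (SE 0.347, adjusted p 0.546) and 0.41 (SE 0.311, adjusted p 0.381) by edgeR. Without VSG replicate 4 the estimates were -0.05 for Ctss and 0.11 for Lgmn, and without sham replicate 2 they were 0.08 and 0.18.

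The remaining proteases lay near or below 0. Ctsb had a log2 fold change of -0.09, Ctsh one of 0.11, and Ctsz one of -0.24 with groups that did not overlap (adjusted p 0.191 by edgeR). Tpp1, the tripeptidyl peptidase lost in a form of Batten disease, stayed within a narrow range of 152 to 158 CPM after sham surgery and 136 to 148 CPM after VSG (log2 fold change -0.14, adjusted p 0.329 by edgeR). Ctsk had the most negative estimate of the list, -0.79, with an SE of 0.502 and an adjusted p of 0.302 by edgeR.

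Grn, the precursor of progranulin, a secreted and lysosomal glycoprotein made strongly by macrophages, measured 266, 230.2 and 253 CPM after sham surgery and 414, 319 and 281 CPM after VSG. The groups did not overlap, and VSG replicate 4 was highest. The log2 fold change was 0.44 (SE 0.172, adjusted p 0.128 by edgeR), and Grn did not pass the test. Without VSG replicate 4 the estimate for Grn was 0.27 (adjusted p 0.257 by edgeR).

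Macrophage markers also differed between the libraries. The summed level of 13 Kupffer cell and macrophage markers was 1240, 582 and 855 CPM after sham surgery and 3185, 1133 and 2020 CPM after VSG. All 13 were highest in VSG replicate 4 within the VSG group, and 10 were lowest in sham replicate 2 within the sham group. Of the 33 lysosomal genes, 19 (57.6%) had their highest VSG value in replicate 4, where 39% of all tested genes did, and 20 (60.6%) had their lowest sham value in replicate 2, where 36.5% of all tested genes did. By edgeR 4 of the 13 markers were higher, where 6.79% of all tested genes were, and 0 lower, with a median log2 fold change of 0.90. Marco (4.96, adjusted p 0.0269), Timd4 (3.03, adjusted p 0.0216), Vsig4 (1.51, adjusted p 0.0405) and Clec4f (1.23, adjusted p 0.0260) were the ones called, and Adgre1, which encodes F4/80, was not (0.68, adjusted p 0.308). None of these calls held without sham replicate 2 (adjusted p 0.0703 to 0.110), sham replicate 3 (0.0989 to 0.152) or VSG replicate 6 (0.0797 to 0.121), and those of Clec4f (0.0513) and Vsig4 (0.0884) were lost without VSG replicate 4. Vsig4 was also lost with total counts (0.0603). No marker of the list was without counts. Markers of lipid-associated macrophages summed to 110 to 442 CPM in the sham group and 165 to 270 CPM in the VSG group. By edgeR 1 of these 7 was called (14.3%, against 14.7% of all tested genes), Fabp5 (1.64, adjusted p 0.0487), and 5 of 7 estimates were negative. The Fabp5 call was lost with limma-voom (0.0740), RLE factors (0.0507) and total counts (0.0763), and when any library but VSG replicate 4 was left out. The part of macrophages in the values of the lysosomal genes was not tested.

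**Figure D4:**
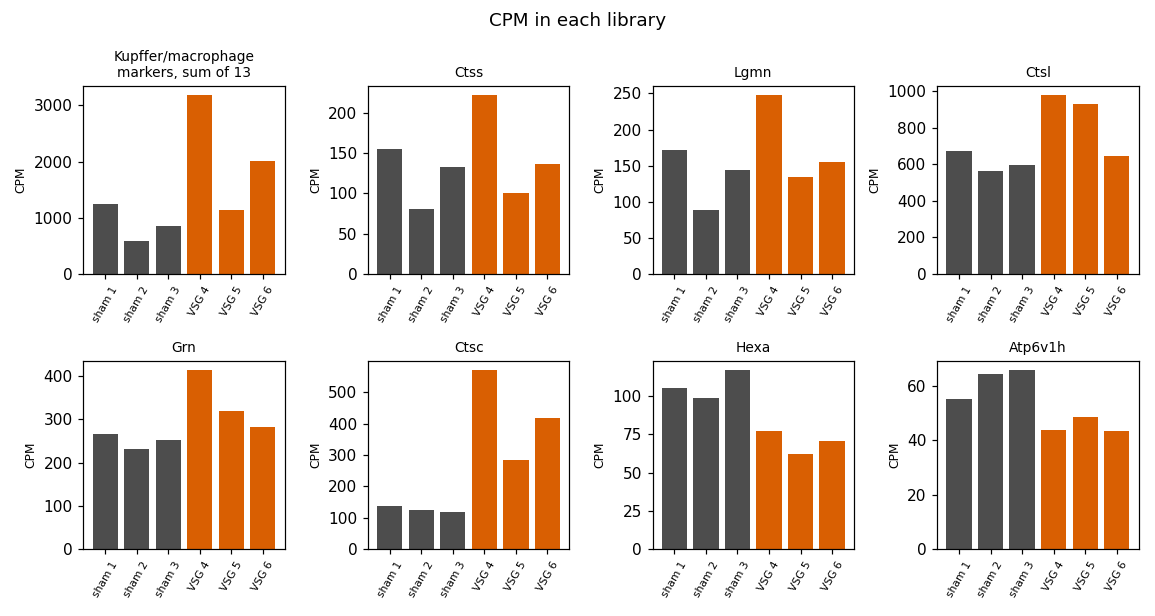
Bars give the CPM in each of the 6 libraries (sham grey, VSG orange), in a panel each for the sum of 13 Kupffer cell and macrophage markers and for Ctss, Lgmn, Ctsl, Grn, Ctsc, Hexa and Atp6v1h. VSG replicate 4 is highest for the marker sum, at 3185 CPM, and for Ctss, Lgmn, Ctsl, Grn and Ctsc, while all VSG bars lie below all sham bars for Hexa and Atp6v1h.

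Of the 6 membrane proteins 0 were called in either direction by edgeR and 1 had an unadjusted p below 0.05, against 14.7% and 33.9% of all tested genes. DESeq2 called Lamp1 and limma-voom 0 of the 6. Lamp1 measured 889.85, 938 and 1023 CPM after sham surgery and 789, 596 and 748 CPM after VSG. The groups did not overlap, and the log2 fold change was -0.42 (SE 0.169, adjusted p 0.136 by edgeR and 0.0278 by DESeq2). Its relative Lamp2, which also takes part in chaperone-mediated autophagy, measured 743, 899 and 747 CPM against 702, 862 and 834 CPM. The groups overlapped, with a log2 fold change of 0.01 and a 95% interval of the fold of 0.765 to 1.32. The difference between Lamp1 and Lamp2 in their response was not tested.

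Npc1 and Npc2 together move cholesterol out of the lysosome, Npc2 in the lumen and Npc1 in the membrane. Npc1 measured 206, 257 and 212 CPM after sham surgery and 125, 204 and 178 CPM after VSG, without overlap (log2 fold change -0.42, SE 0.201, adjusted p 0.195 by edgeR). Npc2 overlapped between the groups, with a log2 fold change of -0.22 (adjusted p 0.309 by edgeR). Scarb2, the sorting receptor of glucocerebrosidase also called LIMP-2, and Mcoln1, the calcium channel TRPML1, had log2 fold changes of 0.02 and -0.10. The tetraspanin Cd63 varied widely, with 12.7, 4.79 and 17.4 CPM after sham surgery and 8.95, 7.81 and 4.86 CPM after VSG (-0.69, SE 0.460, adjusted p 0.324 by edgeR).

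The 3 genes of sphingolipid breakdown did not pass the test by edgeR. Psap measured 832, 749.99 and 865 CPM after sham surgery and 733, 539.98 and 556 CPM after VSG, so the groups did not overlap. Its log2 fold change was -0.42 (SE 0.175, adjusted p 0.146 by edgeR and 0.0400 by DESeq2). Asah1, acid ceramidase, measured 68.4, 60.5 and 64.3 CPM after sham surgery and 90.7, 58.8 and 84.7 CPM after VSG. VSG replicate 5 was the lowest of all 6 libraries, while the other VSG libraries were above the sham group. The log2 fold change was 0.28 (SE 0.170, adjusted p 0.287 by edgeR), and 0.43 without VSG replicate 5 (adjusted p 0.0452). Smpd1, acid sphingomyelinase, had a log2 fold change of -0.06 with a fold interval of 0.815 to 1.13.

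Lysosomal genes outside the list held larger single changes, with log2 fold changes from -1.70 to 1.75. The median size of their log2 fold changes was 0.25, against 0.28 for the 33 genes. Of 133 others, in 7 groups by function, 126 could be tested, and 20 (15.9%) were called by edgeR, 4 higher and 16 lower, against 14.7% of all tested genes. Their median log2 fold change was -0.13. With scaling by total counts 25 were called, 1 higher and 24 lower, while 13.8% of all tested genes were called, 3.36% higher, and the median of all genes moved to -0.11. These calls also rested on single libraries, as did those over all tested genes. With sham replicate 1 left out 10 genes were called, with sham 2 left out 7, with VSG 4 left out 9 and with VSG 5 left out 23. In those fits 8.19%, 5.34%, 7.32% and 18.4% of all tested genes were called. With sham replicate 3 or VSG replicate 6 left out, 1 gene was called, Fnip2, where 1.07% and 1.42% of all tested genes were. Among the 27 other hydrolases 0 rose and 3 fell, 11.1% called against 14.7% of all tested genes. Lipa, the acid lipase that hydrolyses cholesteryl esters and triglycerides in the lysosome, measured 496, 468 and 525 CPM after sham surgery and 229, 259.89 and 245 CPM after VSG. No VSG library came near the sham range. The mean fell from 496 ± 28.6 to 245 ± 15.7 CPM (SD, n = 3), a log2 fold change of -1.02 (SE 0.125, adjusted p 0.00836 by edgeR). Aga, which cleaves the link between asparagine and glycans, and Sumf1, the activator of sulfatases, fell by 0.59 and 0.36 on the log2 scale (adjusted p 0.0196 and 0.0371). The call of Aga was also lost with sham 2 left out (0.0591), and that of Sumf1 with sham 1 (0.0645), sham 2 (0.0962) or VSG 4 (0.0914) left out and with no filter beyond 1 count (0.0640).

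Among the 11 other proteases and inhibitors, 1 rose and 1 fell, 18.2% called against 14.7% of all tested genes. Ctsc, cathepsin C, which activates serine proteases of neutrophils and other leukocytes, measured 136, 125 and 118 CPM after sham surgery and 571, 283 and 417 CPM after VSG. The groups were far apart, with VSG replicate 4 highest, as for the macrophage and neutrophil markers, whose part in the result was not tested. The log2 fold change was 1.75 (SE 0.257, adjusted p 0.0127 by edgeR). Its adjusted p was 0.0775 without sham replicate 3 and 0.0589 without VSG replicate 6. The gene that fell was Ctse (-1.70, adjusted p 0.0165), named after its values were seen because it lay under 5 CPM. Of the 22 other membrane proteins 0 rose and 3 fell (13.6%), among them Laptm4b (-0.69, adjusted p 0.0251) and Tmem192 (-0.57, adjusted p 0.0393), and, under 5 CPM and named after its values were seen, Abcb9 (-1.07, adjusted p 0.0322). Of the 12 genes of mannose 6-phosphate tagging and sorting, 1 fell (8.33%), Gga2, an adaptor that carries tagged enzymes from the Golgi (-0.97, SE 0.124, adjusted p 0.00935 by edgeR). None of these calls held without sham replicate 3 or VSG replicate 6. Those of Laptm4b, Tmem192 and Abcb9 were also lost with sham 2 (0.0730, 0.107 and 0.0847) or VSG 4 (0.0522, 0.0782 and 0.0743) left out, that of Tmem192 with sham 1 left out (0.0753) and that of Abcb9 with VSG 5 left out (0.0501).

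The genes that link lysosomes to mTORC1 and to TFEB and TFE3 numbered 18, of which 1 rose and 4 fell by edgeR, with a median log2 fold change of -0.28. Over all tested genes 6.79% were higher and 7.87% lower. Fnip2, a partner of folliculin in the complex that lets mTORC1 act on TFEB and TFE3, measured 52.1, 69.7 and 68.2 CPM after sham surgery and 23.1, 24.4 and 26.6 CPM after VSG. All VSG values were below all sham values. The log2 fold change was -1.36 (SE 0.137, adjusted p 0.00581). Fnip2 was the only one of the 20 called genes to keep its call under all 12 alternatives, with adjusted p of 0.0418 without sham replicate 3 and 0.0365 without VSG replicate 6. The GTPases Rragc (-0.55, adjusted p 0.0142) and Rraga (-0.40, adjusted p 0.0296), which dock mTORC1 on the lysosome, and Lamtor2 (-0.42, adjusted p 0.0391), part of their anchor, also fell. Tfec, a relative of Tfe3 known from macrophages, rose (1.30, adjusted p 0.0478). Among the 19 autophagy genes 2 rose and 1 fell, 15.8% called against 14.7% of all tested genes. Wipi1, which binds the forming autophagosome, rose by 0.73 on the log2 scale (adjusted p 0.0333) and Atg16l1 by 0.37 (adjusted p 0.0478). Atg7, the E1-like enzyme of LC3 conjugation, fell from 49.7, 73.4 and 65.0 CPM after sham surgery to 28.6, 34.5 and 32.7 CPM after VSG (-0.97, adjusted p 0.0165). Except for Fnip2, the calls of this paragraph were lost without sham replicate 3 (adjusted p 0.0775 to 0.159) and without VSG replicate 6 (0.0686 to 0.144). Rragc and Atg7 held when any other library was left out. Tfec was also lost with limma-voom (0.0897), with total counts (0.0674), and with sham 1 (0.111), sham 2 (0.127) or VSG 4 (0.109) left out. Atg16l1 was lost in 9 of the 12 alternatives, namely RLE factors (0.0528), total counts (0.193), no filter beyond 1 count (0.121) and every fit with a library left out. Wipi1 was also lost with total counts (0.0541) and with sham 1 (0.0840), sham 2 (0.0792) or VSG 4 (0.0735) left out. Rraga and Lamtor2 were also lost with sham 1 (0.0519 and 0.0708), sham 2 (0.0847 and 0.102) or VSG 4 (0.0618 and 0.0637) left out, and Lamtor2 with VSG 5 left out (0.0560).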

How the data were processed

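Poly(A)-selected, strand-specific RNA-seq libraries were made from 6 livers, 3 sham and 3 VSG, grouped by the treatment label. Per the labels and the methods, the authors aligned reads with STAR 2.6.0 to mm10 after FastQC 0.10.1 and deposited raw counts per gene from featureCounts (2.0.3 in the submitters' processing notes). The annotation release, strand setting and treatment of multimapping or shared reads were not given in the sources used here, so overlapping genes and near-identical copies are uncertain. The deposited summed exon length of each gene entered only FPKM.

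Identifiers were matched to GENCODE M21 (55144 of 55385 without version), and all 33 symbols were found. The genes and lists were chosen with earlier results of these data known. After the filterByExpr filter (count of 10, total of 15), genes were tested with edgeR 4.0.16 (glmQLFit and glmQLFTest, TMM, group only, R 4.3.3), at an adjusted p of 0.05 (Benjamini-Hochberg). SE is the size of the log2 fold change divided by the square root of F. Alternatives were DESeq2 1.42.0, limma-voom (limma 3.58.1), RLE factors, total counts, 2 other filters, and leaving out each library. Libraries of a group differed beyond sampling noise. The labels do not say whether animals shared a cage, and p-values measure the spread between these animals. All 33 genes are named. Of the other lysosomal genes, up to 4 called genes per direction at a mean of at least 5 CPM are named. Marker lists are given mainly as sums and counts, and not every first or called marker is named. The steps were tested on simulated data.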

Additional observations from a re-analysis of the deposited data

How the results depend on the processing

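With DESeq2, 7 of the 33 genes were called, 1 higher and 6 lower, of 3288 among all tested genes (22.7%). Of the 126 other lysosomal genes that could be tested, DESeq2 called 37, 31 of them lower. With total counts, 1 of the other lysosomal genes was higher, and the median log2 fold change of the 33 genes was -0.28, where that of all genes moved to -0.11. Leaving out 1 library at a time gave 0 to 4 called genes of the 33, 0 to 2 higher and 0 to 2 lower. It gave 159 to 2732 called among all genes, and 1 to 23 among the other lysosomal genes, 0 to 7 higher and 1 to 16 lower. The median of the 33 genes then ran from -0.19 to -0.13. Of the single genes, 19 estimates changed sign, all of genes that no fit called. For Lamp2 the log2 fold change was -0.0045 with DESeq2, -0.0045 with RLE factors, -0.13 with total counts, -0.0258 with no filter beyond 1 count, and -0.0716 to 0.0977 with 1 library left out. For Scarb2 it was -0.10 with total counts, -0.0099 with no filter beyond 1 count, and -0.0698 to 0.1071 with 1 library left out. With total counts it was -0.0726 for Tfeb and -0.0174 for Ctsh. With 1 library left out it ran from -0.0125 to 0.1509 for Tfeb, from -0.0536 to 0.5209 for Ctss, from -0.4078 to 0.0153 for Gla and from -0.2884 to 0.0126 for Gaa. Apart from the calls named in the report, the other estimates kept their direction and their side of the threshold. The cause of these shifts was not tested. No paired analysis was possible because the sham animals are numbered 1 to 3 and the VSG animals 4 to 6, so the groups share no replicate number. Total counts were at least 22804397 per library, and the lowest genes of the list, such as Ctsk with 23 to 100 counts per library, carry the largest counting error.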
